A study of Mus musculus with 6 samples.

Results

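The genes described here are the ligands, receptors, SMAD proteins, extracellular regulators and well-known target genes of the TGF-beta, activin and BMP pathways, measured in pituitary side population cells of mice with or without toxin-driven loss of growth hormone cells. They are 41 genes, chosen by name, and every probe whose gene name in the scanner files equals 1 of them was taken: 59 probes, of 39429 probes for 30175 genes on the array. Of the 41 genes, 27 had 1 probe and 14 had more. By branch, 15 belong to TGF-beta and activin signalling, 21 to BMP signalling and 5 (Smad4, Smad7, Fstl1, Acvr2a and Acvr2b) serve both.

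All mice were female and carried iDTR, an inducible allele of the diphtheria toxin receptor, and all were injected with diphtheria toxin (DT) at 4 ng per g of body weight, 2 times a day. In the GHCre/iDTR mice a Cre recombinase driven by the growth hormone gene switches the receptor on in growth hormone cells, which the toxin then kills. The -/iDTR controls have no Cre and received the same toxin. The 6 samples form 4 groups: 2 controls and 2 GHCre/iDTR samples after 3 days of DT, and 1 control and 1 GHCre/iDTR sample after 10 days of DT. From the dissociated anterior lobe, cells that pump out a Hoechst dye and lack high Sca1 were sorted. This gate is labelled the stem cell side population (SC-SP), and a sort typically gave 25000 to 50000 cells. RNA was amplified from 1 ng and hybridised to 1-colour Agilent arrays. The titles and genotype fields define the groups, because the free-text descriptions of several samples name another group than their titles. The design text calls the 2 samples of a group independent, but how many mice a sample pooled, and their age, were not given in the sources used here. The p-values below therefore measure only the spread between these samples.

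TGF-beta family ligands are dimers that bring together type II and type I serine/threonine kinase receptors. TGF-beta and activin type I receptors (Tgfbr1, Acvr1b) phosphorylate SMAD2 and SMAD3, whereas BMP type I receptors (Acvr1, Bmpr1a, Bmpr1b) phosphorylate SMAD1, SMAD5 and SMAD9, and both kinds join SMAD4 to reach the nucleus. SMAD6 and SMAD7 inhibit the pathway, and noggin, chordin, gremlin and follistatin trap ligands outside the cell. In the pituitary, BMP4 takes part in forming the anterior lobe in the embryo, and activins drive production of follicle-stimulating hormone in gonadotropes.

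The probes are 60-base oligonucleotides, and 3 are shown because the results on Tgfb2 and Tgfbr2 turn on which stretch of a gene was measured. The first 2 cover matching stretches of a pair of related ligands, and the capitals mark the 28 of 41 aligned bases that are identical between them. The third is the second probe of Tgfbr2, a TGF-beta receptor, and its capitals mark the stop codon at its end. Positions are those of the files, in the mouse build mm9: chr7:26489877-26489936 on the plus strand, chr1:188449333-188449392 on the minus strand and chr9:115999496-115999555 on the minus strand.
Tgfb1: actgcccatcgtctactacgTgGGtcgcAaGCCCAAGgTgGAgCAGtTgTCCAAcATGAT
Tgfb2: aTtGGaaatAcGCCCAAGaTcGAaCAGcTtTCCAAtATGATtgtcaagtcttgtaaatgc
Tgfbr2: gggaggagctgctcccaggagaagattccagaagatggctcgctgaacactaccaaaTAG
Both the Tgfb2 and Tgfbr2 probes read through in an open frame. A second Tgfb2 probe lies 1739 bases further downstream, and is called the downstream probe below.

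Levels are log2 of the processed signal relative to the 75th percentile of the same array, so that 0 is a signal as bright as that percentile. The percentile lay between 186 and 299 intensity units, and 53.8% to 65.7% of probes were well above background, with replicate 1 of the 3-day controls the lowest. A level is not comparable between probes, since probes differ in brightness at equal RNA. A gene with several probes is represented by its brightest one unless another is named. Of the 41 genes, 29 were well above background on all 6 arrays, 6 more on 2 to 5 arrays, 3 on 1 array (Bmp5, Inhba and Smad9) and 3 on none (Smad6, Grem1 and Fst). Probes above background on at least 2 arrays were tested, which kept 27254 probes and 35 of the 41 genes. Of the stem and progenitor markers, Sox2, which marks pituitary stem cells, was not well above background on any array. These are bulk samples, so fewer cells of a type and less RNA per cell cannot be told apart.

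No probe passed the adjusted threshold of 0.05 after 3 days, or in any other comparison. With limma and Benjamini-Hochberg adjustment over all 27254 probes, 0.00% of all genes were called, and the lowest adjusted p was 0.638. At an unadjusted p under 0.05, 1818 probes differed between the genotypes after 3 days, 6.67% of those tested. What follows therefore gives levels and differences, none of which is a call.

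After 3 days, most TGF-beta and BMP genes read higher in GHCre/iDTR than in control samples. Of the 29 genes above background on every array, 25 had a higher mean in GHCre/iDTR samples, where 43.1% of all 14735 such genes did. In 12 of the 29 both GHCre/iDTR arrays lay above both control arrays, against 15.9% of all such genes, and in 2 (Tgfb3 and Acvr1b) both lay below, against 25%. Among the 35 genes tested, the median log2 difference was 0.60, beside -0.037 over all genes tested, and it was 0.43 over all 41 genes with no filter. An unadjusted p under 0.05 was reached by Bmp7, Tgfbi and Smad7 in the higher direction (3.68% of all genes) and by Acvr1b in the lower (2.42%). With the slide as a block in limma, Smad7 (unadjusted p = 0.0701, adjusted p = 0.701) and Acvr1b (unadjusted p = 0.0763, adjusted p = 0.701) no longer reached it. Bmp7 and Tgfbi still did (unadjusted p = 0.0109 and 0.0465, adjusted p = 0.700 with limma for both). The 3-day control and GHCre/iDTR samples of replicate 1 shared a slide, as did the pair of replicate 2, which lay on a slide with the 10-day GHCre/iDTR sample. The median over the genes was 0.73 within the slide of replicate 1 and 0.36 within that of replicate 2. It was 0.36 without GHCre/iDTR replicate 1. When each 3-day array was left out in turn, 23 of the 35 genes kept the direction of their difference. The other 12, Tgfb2 (upstream probe), Bmp6, Tgfbr1, Tgfbr3, Bmpr2, Acvr2b, Smad1, Smad2, Smad5, Chrd, Id1 and Id4, turned in at least 1 of these fits.

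**Figure D1:**
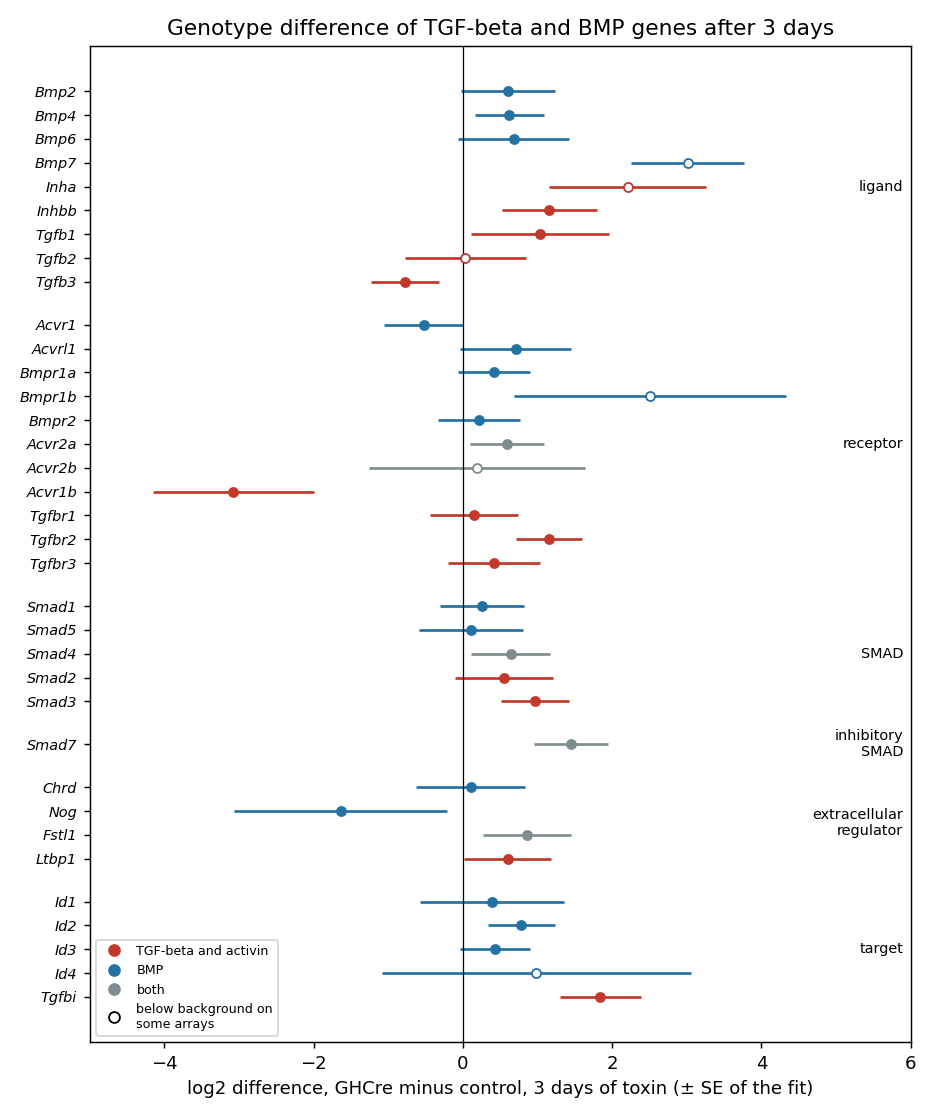
Log2 difference between GHCre/iDTR and control samples after 3 days of DT (2 arrays each) for the 35 tested genes, by role, with bars of ± 1 standard error of the limma fit and open points for genes below background on some arrays. Of the points, 31 (48.0% of all tested genes) lie to the right of 0 and 4 (52.0%) to the left (Tgfb3, Acvr1, Acvr1b and Nog), and none passed the adjusted threshold.

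Markers of other cell types also read differently in the 3-day samples. The summed signal of 10 fibroblast and mural markers (collagens, Pdgfra, Pdgfrb and others, 10 of 10 tested) was 208 and 140 in the 3-day controls and 273 and 228 in the GHCre/iDTR samples, in units of each array's 75th percentile, with 175 and 173 in the 10-day control and GHCre/iDTR samples. All 10 read higher after 3 days, with a median log2 difference of 0.72. Each sum covers all listed markers on the array, also those not tested. The 10 endothelial markers, 8 of them tested, summed to 5.37 and 4.55 in the 3-day controls, 8.11 and 6.0 in the GHCre/iDTR samples, and 6.42 and 5.75 at 10 days. Of the 8 tested, 7 read higher after 3 days and 1 lower. Tie1 was above background on no array. Folliculostellate and glial markers (8 of 8 tested) summed to 47.2 and 31.1 in controls against 67.0 and 51.9 at 3 days, with 5 genes higher and 3 lower. Lymphocyte markers (7 of 10 tested) summed to 17.3 and 22.3 against 37.3 and 33.3, with 5 of the 7 higher and 2 lower, and Cd79b and Ms4a1 on no array. The macrophage marker sum went the other way (232 and 195 against 160 and 164, 7 of 9 tested, Aif1 and C1qa on no array), although 3 of the 7 read higher and 4 lower. So did the hormone cell marker sum (2476 and 2365 against 1731 and 1484, 9 of 10 tested, Fshb on no array), with 2 of the 9 higher and 7 lower. Stem and progenitor markers (7 of 10 tested), at 20.2 and 17.1 against 19.4 and 19.9, overlapped in their sum, while the median log2 difference over the 7 genes was 0.98, with 5 higher. The part of these cell types in the pathway genes' differences was not tested.

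Tgfb2, the TGF-beta and activin ligand with more than 1 probe, read differently on its probes. On the downstream probe (chr1:188447534-188447593, mm9, minus strand) its level was -5.90 and -6.46 in the 3-day controls, both below background, and -0.38 and 0.00 in the GHCre/iDTR samples. The 10-day control stood at -3.52 and the 10-day GHCre/iDTR sample at -2.79. Both 3-day GHCre/iDTR arrays were thus far above all other arrays, and the genotypes did not overlap. The difference was 5.99 ± 0.48 (SE), with 5.52 and 6.46 within the slides. On the processed signal it was at least 13.1-fold, or 3.71 in log2. Its unadjusted p of 0.000229 ranked 3 among the 27254 probes, and the adjusted p was 0.638 with limma. With normexp background correction the difference was 2.10, below the bound of 3.71. This probe is not the gene's brightest and was singled out after its values were seen.

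The upstream Tgfb2 probe, whose sequence is given above, showed no such pattern. It read -0.78 and -2.74 in the 3-day controls, -1.87 and -1.59 in the GHCre/iDTR samples, -1.76 in the 10-day control and -4.17, below background, in the 10-day GHCre/iDTR sample. The 3-day control arrays enclosed both GHCre/iDTR arrays. The difference of 0.03 ± 0.81 (adjusted p = 0.997 with limma) combined -1.09 within the slide of replicate 1 and 1.15 within that of replicate 2. The part of Tgfb2 transcripts that each probe reports was not tested.

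Tgfb1, a ligand with broad roles in matrix production and immune control, read -2.91 and -1.70 in the 3-day controls, -2.28 and -0.27 in the GHCre/iDTR samples, -2.64 in the 10-day control and 0.09 in the 10-day GHCre/iDTR sample. The 3-day groups overlapped, and the brightest array was the lone 10-day GHCre/iDTR sample. The 3-day difference was 1.03 ± 0.93 (adjusted p = 0.891 with limma), and it was 0.03 without GHCre/iDTR replicate 2 and 2.04 without GHCre/iDTR replicate 1. It was 0.43 without control replicate 1 and 1.64 without control replicate 2. Tgfb3 was the only one of the 9 tested ligands with a lower mean in GHCre/iDTR samples, at 1.38 and 1.89 in controls against 0.93 and 0.78, a difference of -0.77 ± 0.46.

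The inhibin subunits form activins (beta-beta dimers) and inhibins (alpha-beta dimers). Inha, the alpha subunit (chr1:75506675-75506734), read -5.10, below background, and -2.36 in the 3-day controls and -1.52 on both GHCre/iDTR arrays, with -1.64 and -1.16 in the 10-day control and GHCre/iDTR samples. The groups did not overlap, but control replicate 1 alone was below background: the difference of 2.21 ± 1.05 (adjusted p = 0.813 with limma) was 0.84 without it and 3.58 without control replicate 2. Inhbb, a beta subunit (chr1:121312160-121312219), read -0.68 and -1.26 in controls and -0.44 and 0.81 in GHCre/iDTR samples at 3 days, then 0.46 (control) and -1.10 (GHCre/iDTR) at 10 days. The genotypes, which did not overlap at 3 days, differed by 1.16 ± 0.64 then (limma's adjusted p = 0.848) and by -1.56 at 10 days. It was 0.53 without GHCre/iDTR replicate 2 and 1.78 without GHCre/iDTR replicate 1. Inhba was above background in the 10-day control alone, at -3.73, with the other 5 arrays between -6.92 and -5.69, all below background.

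**Figure D2:**
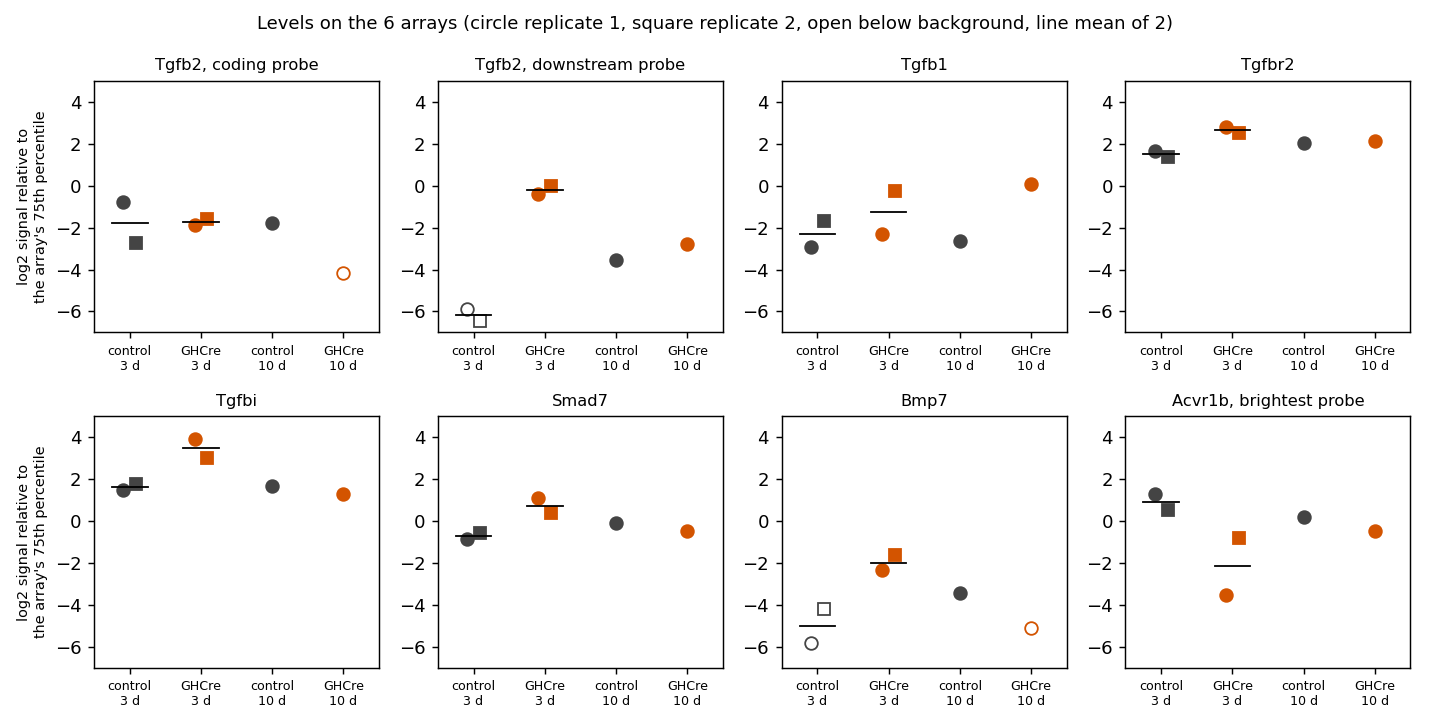
Log2 level relative to each array's 75th percentile on the 6 arrays for 8 probes of 7 genes, by group (circles replicate 1, squares replicate 2, open symbols below background, lines the mean of 2 arrays). The downstream Tgfb2 probe, Tgfbi, Smad7, Tgfbr2 and Bmp7 were higher on both 3-day GHCre/iDTR arrays than on both 3-day control arrays, Acvr1b was lower, and Tgfb1 and the upstream (coding) Tgfb2 probe overlapped.

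Of the BMP ligands, Bmp7 stood apart. Its level (chr2:172695203-172695262) was -5.83 and -4.17 in the 3-day controls, both below background, and -2.34 and -1.64 in the GHCre/iDTR samples, with -3.45 in the 10-day control and -5.12, below background, in the 10-day GHCre/iDTR sample. The 3-day groups did not overlap, whereas at 10 days the lone control was the brighter. The 3-day difference was 3.01 ± 0.76 (adjusted p = 0.677 with limma), with 3.49 and 2.53 within the slides. On the processed signal it was at least 3.71-fold, or 1.89 in log2. With normexp background correction the difference was 0.74, below that bound. Bmp4, the BMP of early pituitary formation, was above background on every array on its brightest probe: 1.99 and 2.44 in controls and 3.01 and 2.66 in GHCre/iDTR samples at 3 days, 2.31 and 2.13 at 10 days. Both 3-day GHCre/iDTR arrays lay above both controls, but the difference of 0.62 ± 0.46 was not past the threshold (adjusted p = 0.878 with limma). It was 0.40 without control replicate 1 and -0.013 when both Bmp4 probes were averaged. The second Bmp4 probe was above background only on control replicate 1 of 3 days. It read -3.24 and -5.09 in the 3-day controls and -4.83 and -4.80 in the GHCre/iDTR samples, a difference of -0.65. Bmp2 and Bmp6 differed by 0.60 ± 0.63 and 0.68 ± 0.74, and Bmp5 was above background only in GHCre/iDTR replicate 1 of 3 days.

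Among the receptors, Tgfbr2, the type II receptor that binds TGF-beta itself, differed by nearly the same amount on both slides. Its level (chr9:115997155-115997214) was 1.65 and 1.35 in the 3-day controls and 2.79 and 2.51 in the GHCre/iDTR samples, with 2.04 and 2.14 in the 10-day control and GHCre/iDTR samples. Both 3-day GHCre/iDTR arrays were above all the others. The difference was 1.15 ± 0.44, with 1.14 and 1.16 within the slides (unadjusted p = 0.0599 and adjusted p = 0.754 with limma). The second Tgfbr2 probe, which ends at the stop codon, differed by 0.72 ± 0.52, with 1.29 and 0.15 within the slides. The partner type I receptor Tgfbr1 differed by 0.14 ± 0.59 on its brightest probe, and by 0.70, -1.70 and -2.34 on its other probes. The last 2 of these carry other transcript identifiers and were each below background on some arrays. The co-receptor betaglycan, Tgfbr3, differed by 0.42 ± 0.62.

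Acvr1b, the activin type I receptor, had the most negative 3-day difference of the 11 receptors. Its brightest probe (chr15:101042850-101042909) read 1.32 and 0.51 in the 3-day controls, -3.51 and -0.81 in the GHCre/iDTR samples, and 0.19 and -0.49 in the 10-day control and GHCre/iDTR samples. The 3-day groups did not overlap, with GHCre/iDTR replicate 1 the lowest array. The difference was -3.08 ± 1.08 (unadjusted p = 0.0455 and adjusted p = 0.739 with limma), -4.83 and -1.32 within the slides, and -1.73 without that array. The other Acvr1b probe, named after its values were seen, gave 0.49 ± 0.94 with overlapping groups: -1.47 and -0.05 in controls against -1.23 and 0.69. The probes of Acvr1b thus had opposite signs after 3 days, and their mean differed by -1.29.

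The BMP type I receptors gave small or unstable differences after 3 days. Bmpr1a read 1.18 and 1.87 in controls and 1.90 and 1.99 in GHCre/iDTR samples, a difference of 0.42 ± 0.48 that was 0.08 without control replicate 1 and 0.76 without control replicate 2. At 10 days it read 1.34 (control) and 1.14 (GHCre/iDTR). Bmpr1b (chr3:141500694-141500753) read -5.69, below background, and -1.11 in controls and 0.16 and -1.93 in GHCre/iDTR samples, so that the difference of 2.51 ± 1.82 was 5.84 within one slide and -0.82 within the other. It was 1.47 without GHCre/iDTR replicate 1, 0.22 without control replicate 1, and 4.80 without control replicate 2. The second Bmpr1b probe, below background on some arrays, differed by 0.10 ± 1.97 after 3 days. The 10-day readings of Bmpr1b were -0.77 for the control and -2.52 for the GHCre/iDTR sample.

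Acvr1, a type I receptor for BMPs, read -0.09 and 0.56 in the 3-day controls and -0.61 and 0.04 in the GHCre/iDTR samples on its brightest probe (chr2:58298937-58298996), a difference of -0.52 ± 0.53 with overlap. A second Acvr1 probe gave 0.72 ± 0.45, at -1.40 and -0.97 in controls against -0.33 and -0.60, without overlap. The 2 readings of this receptor thus pointed in opposite directions. Acvrl1, a receptor known from endothelium, differed by 0.71 ± 0.74, with 1.94 and -0.53 within the slides. The type II receptors Bmpr2, Acvr2a and Acvr2b differed by 0.21 ± 0.55, 0.59 ± 0.50 and 0.19 ± 1.45.

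Of the SMADs that carry the signal, Smad3 of the TGF-beta and activin branch had the highest 3-day difference. It read 1.18 and 0.68 in controls and 1.91 and 1.88 in GHCre/iDTR samples at 3 days, then 1.88 and 1.97 at 10 days. The 3-day controls were below the other 4 arrays, and the difference was 0.96 ± 0.45 (unadjusted p = 0.0993 with limma). On the second Smad3 probe the 3-day groups overlapped, at -1.92 and -3.51 in controls against -2.69 and -1.35. The difference there was 0.70 ± 0.84, with -0.77 and 2.16 within the slides. Smad2 differed by 0.55 ± 0.66 (-0.17 without GHCre/iDTR replicate 1), and the common partner Smad4 by 0.64 ± 0.53 (0.22 without that array). Smad1 and Smad5 of the BMP branch differed by 0.25 ± 0.56 and 0.11 ± 0.70. The other Smad1 probes differed by 0.36 ± 0.43 and -1.25 ± 1.65. Smad9, the remaining BMP SMAD, was above background in the 10-day control only, at -1.52, with the other 5 arrays between -6.86 and -5.80.

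Smad7, an inhibitor that TGF-beta signalling itself induces, read -0.86 and -0.55 in the 3-day controls and 1.09 and 0.40 in the GHCre/iDTR samples. The 10-day control and GHCre/iDTR samples stood at -0.08 and -0.46. The 3-day groups did not overlap, and the 10-day samples lay between them. The 3-day difference was 1.45 ± 0.50, 2.73-fold, with 1.96 and 0.94 within the slides (unadjusted p = 0.0429 and adjusted p = 0.739 with limma).

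Of the extracellular regulators, the BMP trap noggin had the widest scatter. Nog (chr11:89162849-89162908) read 1.03 and -2.18 in the 3-day controls, -3.29 and -1.13 in the GHCre/iDTR samples, and -2.14 and -1.38 in the 10-day control and GHCre/iDTR samples. One control array was high, and the groups overlapped. The difference was -1.64 ± 1.43 (adjusted p = 0.890 with limma), -4.32 within one slide and 1.05 within the other, and from -0.03 (without control replicate 1) to -3.24 (without control replicate 2). Fstl1, a secreted glycoprotein related to follistatin, was bright on all arrays (4.97 and 4.15 against 5.84 and 5.0 at 3 days, and 4.58 and 4.53 at 10 days), with a difference of 0.86 ± 0.59 that was 0.44 without GHCre/iDTR replicate 1 and 0.45 without control replicate 2. Ltbp1, which stores latent TGF-beta in the matrix, differed by 0.60 ± 0.59 (0.07 without control replicate 2, 1.13 without control replicate 1). The second Ltbp1 probe differed by -0.23 ± 0.48, with -0.24 and -0.21 within the slides. Chordin, Chrd, differed by 0.10 ± 0.73.

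Target genes were represented by Tgfbi, a matrix protein named for its induction by TGF-beta, and the Id genes, inhibitors of helix-loop-helix factors that BMPs induce. Tgfbi (chr13:56740460-56740519) read 1.5 and 1.77 in the 3-day controls, 3.94 and 3.02 in the GHCre/iDTR samples, and 1.67 and 1.28 in the 10-day control and GHCre/iDTR samples. Both 3-day GHCre/iDTR arrays stood above the other 4, which lay close together. The difference was 1.84 ± 0.54, 3.59-fold, with 2.44 and 1.25 within the slides (unadjusted p = 0.0261 and adjusted p = 0.708 with limma). The sums of fibroblast and mural markers, of folliculostellate and glial markers and of lymphocyte markers were also highest on these arrays. The part of any cell type in the Tgfbi values was not tested.

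The Id genes differed less. Id1 read 0.31 and -1.06 in controls and 1.04 and -1.02 in GHCre/iDTR samples at 3 days and 0.00 and -0.79 at 10 days: replicate 1 was high in both genotypes, the groups overlapped, and the difference was 0.39 ± 0.97. It was -0.64 without GHCre/iDTR replicate 1 and -0.30 without control replicate 2, against 1.42 and 1.07 without the other array of each group. Id2 read 0.80 and 1.20 in controls and 1.66 and 1.90 in GHCre/iDTR samples, without overlap, a difference of 0.78 ± 0.45, and 1.55 and 1.42 at 10 days. Id3, bright on every array, read 5.17 and 4.82 against 5.67 and 5.18 at 3 days and 4.95 and 5.25 at 10 days, a difference of 0.43 ± 0.47. The GHCre/iDTR arrays of Id3 lay just above the controls, and the difference was 0.18 without GHCre/iDTR replicate 1 and 0.67 without GHCre/iDTR replicate 2. Id4 differed by 0.99 ± 2.07, with control replicate 2 below background.

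Promoter windows of the genes held a SMAD box about as often as those of other genes. The letters CAGAC, a SMAD-binding box, or their complement GTCTG on the other strand, were searched in the 250 bases before the start site in the RefSeq table (GRCm38.p6). Of 36 windows of the 30 genes that matched the table, 44.4% held at least 1 match, beside 42.2% of all 32851 windows. The windows of Tgfb2 (chr1:186705990-186706239, minus strand) and Tgfbi (chr13:56609336-56609585, plus strand), the ligand and the target with the clearest 3-day separation on 1 probe, are shown with matches in capitals. Each held 2 matches, as 11.7% of all windows held 2 or more. A match is a description of letters and not a site.
Tgfb2: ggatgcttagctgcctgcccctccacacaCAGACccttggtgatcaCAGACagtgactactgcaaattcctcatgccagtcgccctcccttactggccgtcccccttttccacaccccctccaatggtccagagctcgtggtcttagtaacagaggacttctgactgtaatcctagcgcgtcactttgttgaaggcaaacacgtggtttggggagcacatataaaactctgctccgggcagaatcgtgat
Tgfbi: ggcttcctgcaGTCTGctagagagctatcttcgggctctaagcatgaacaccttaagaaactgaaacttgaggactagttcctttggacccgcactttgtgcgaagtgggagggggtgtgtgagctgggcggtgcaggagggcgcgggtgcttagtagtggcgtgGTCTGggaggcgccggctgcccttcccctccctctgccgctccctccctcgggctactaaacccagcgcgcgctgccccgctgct

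Compared by branch, the TGF-beta and activin genes and the BMP genes were alike in direction after 3 days. Of the genes above background on all arrays, 9 of 11 in the TGF-beta and activin branch and 12 of 14 in the BMP branch had a higher mean in GHCre/iDTR samples, and all 4 of those serving both did. The median difference was 0.60 over the 13 tested TGF-beta and activin genes and 0.43 over the 17 tested BMP genes. Within the slides the medians were 0.63 and 0.90 for TGF-beta and activin, and 0.72 and 0.22 for BMP. The branches thus changed order between the slides. Leaving out single 3-day arrays moved the TGF-beta and activin median between 0.36 (without GHCre/iDTR replicate 1) and 0.84, and the BMP median between 0.18 (without GHCre/iDTR replicate 1) and 0.80 (without GHCre/iDTR replicate 2), so the gap of the branches lay within the spread of single arrays. No test of the branches against each other was run.

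By role, the 3-day medians were 0.68 over 9 tested ligands, 0.42 over 11 receptors, 0.55 over 5 signalling SMADs, 0.35 over 4 extracellular regulators and 0.78 over 5 targets. All 5 targets and all 5 signalling SMADs had a higher mean in GHCre/iDTR samples, as did 8 of 9 ligands and 9 of 11 receptors. Within the slides of replicates 1 and 2 the medians were 0.87 and -0.45 for receptors, 1.12 and 0.04 for signalling SMADs, 0.22 and 0.87 for extracellular regulators, 0.62 and 0.88 for ligands, and 0.73 and 0.71 for targets. Single arrays moved each of them: leaving out 1 array of 3 days gave 0.08 (without control replicate 1), 0.11 (without GHCre/iDTR replicate 1) or up to 0.74 (without GHCre/iDTR replicate 2) for receptors and 0.22 (without GHCre/iDTR replicate 1) to 0.98 (without GHCre/iDTR replicate 2) for SMADs. Targets ranged from 0.25 (without control replicate 2) and 0.36 (without GHCre/iDTR replicate 1) to 1.42 (without GHCre/iDTR replicate 2), extracellular regulators from 0.18 (without GHCre/iDTR replicate 2) to 0.55 (without control replicate 1), and ligands from 0.44 (without GHCre/iDTR replicate 1) to 1.01 (without control replicate 1). The order of the roles therefore lay within the spread of single arrays. Among genes on all arrays, 5 were at least 1 log2 unit higher (9.24% of all such genes): Tgfb1, Inhbb, Tgfbr2 and Tgfbi of the TGF-beta and activin branch, and Smad7 of both. Without GHCre/iDTR replicate 2, Tgfb1 and Inhbb were under 1. Over all tested genes, which adds those below background on some arrays, 5 of the TGF-beta and activin branch, 2 of the BMP branch (Bmp7 and Bmpr1b) and 1 of both were that much higher, beside 14.5% of all tested genes.

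**Figure D3:**
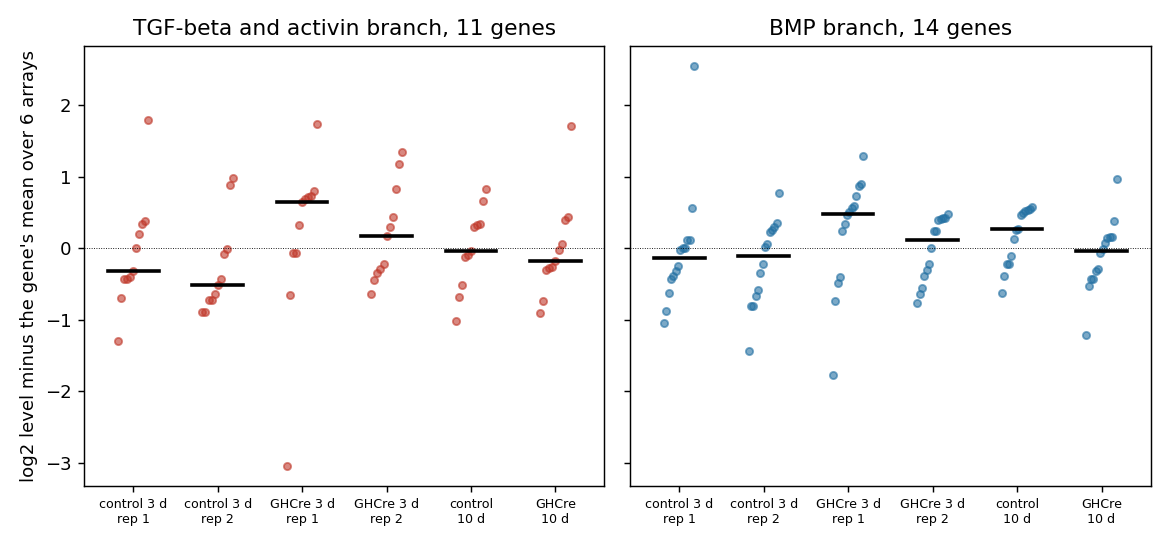
Log2 level of each gene above background on all arrays, minus its own mean over the 6 arrays, for 11 TGF-beta and activin genes and 14 BMP genes, with a line at the median of each array. The TGF-beta and activin medians were -0.31 and -0.52 on the 3-day control arrays and 0.64 and 0.17 on the 3-day GHCre/iDTR arrays, and the BMP medians -0.14 and -0.10 against 0.48 and 0.12.

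After 10 days of DT there was 1 array per genotype, and the direction seen after 3 days was not. The 10-day control lay alone on its slide and the 10-day GHCre/iDTR sample on the slide of replicate 2. Genotype and slide therefore cannot be told apart at 10 days. Of the 29 genes above background everywhere, 9 read higher in the GHCre/iDTR sample (49.3% of all such genes) and 20 lower (50.7%). The median difference over the 35 tested genes was -0.18, with -0.09 for TGF-beta and activin and -0.21 for BMP, beside -0.0016 over all genes. The median over the 35 genes was -0.36 when all probes of a gene were averaged. By role, receptors had the lowest median, -0.68, while signalling SMADs stood at 0.10 and ligands at -0.17. On brightest probes 10 of 11 receptors were lower (50.1% of all tested genes), among them all 5 BMP receptors. Their other probes above background on all arrays, of Acvr1b, Tgfbr1, Tgfbr2 and Acvr1, read higher, by 0.76, 0.77, 0.61 and 0.47. Of those below background on some arrays, the probes of Tgfbr1, Bmpr1b and Acvr2a read lower and that of Acvr1 differed by 0.01. On the same arrays, 7 of 9 tested hormone cell markers were lower in the GHCre/iDTR sample with a median of -3.28, although their sums were 1942 in the control and 2027 there. Folliculostellate and glial markers had a median of -0.68 (4 of 8 lower), stem and progenitor markers of -0.46 and fibroblast and mural markers of -0.41. The part of these in the pathway genes' values was not tested. At an unadjusted p under 0.05 no pathway gene passed in either direction (1.21% of all genes did in the higher and 1.59% in the lower), and with the lone arrays assumed to vary like those of 3 days limma called 0 probes, with 831 (3.05%) at an unadjusted p under 0.05.

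The largest 10-day differences ran both ways. Tgfb1 was 2.73 higher in the GHCre/iDTR sample, 6.63-fold (SE 1.31), and was the only gene of the 29 at least 1 log2 unit higher (8.63% of such genes). On the processed signal, upstream Tgfb2 was at least 5.32-fold lower and Smad9 at least 6.73-fold lower, each below background in the GHCre/iDTR sample, as were Bmp7, at least 1.76-fold lower, and Inhba, at least 1.45-fold lower. With normexp background correction upstream Tgfb2 and Bmp7 differed by less than these bounds. Acvr1 read 0.28 (control) and -1.42 (GHCre/iDTR) and differed by -1.71 ± 0.75, while its second probe differed by 0.47. Bmpr1b differed by -1.75. Smad3 differed by 0.10 on its brightest probe and by -2.91 on its second.

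**Figure D4:**
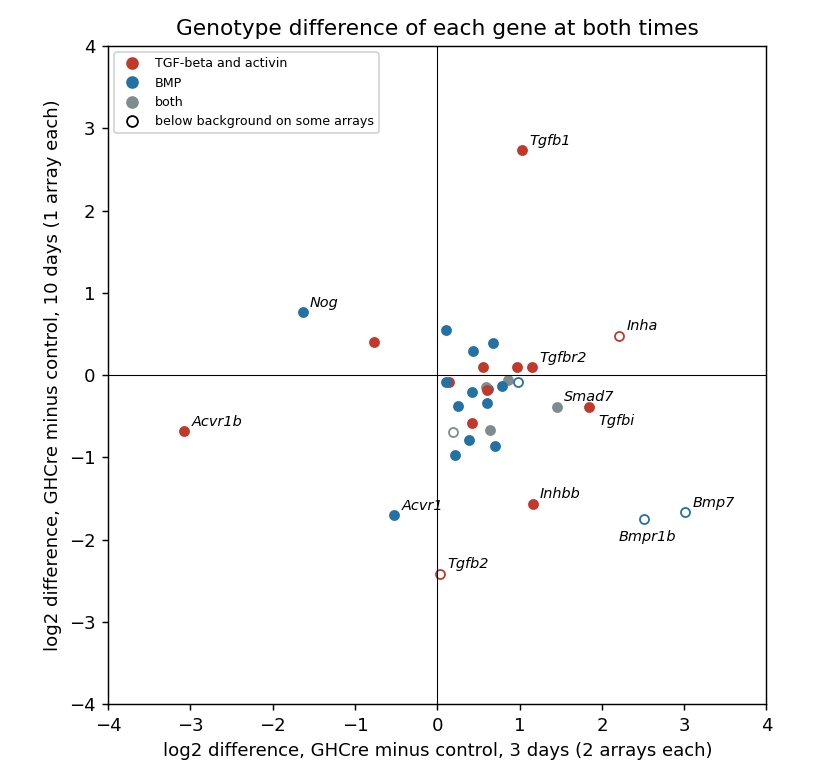
Log2 difference between GHCre/iDTR and control samples after 10 days (1 array each) against that after 3 days (2 arrays each) for the 35 tested genes, coloured by branch, with open points for genes below background on some arrays. Most points lie to the right of 0 and below 0, 31 of 35 being higher after 3 days and 25 of 35 lower after 10 days (50.1% of all tested genes), with Tgfb1 the highest at 10 days.

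The difference between the 10-day and the 3-day effect was negative for 24 of the 29 genes above background on all arrays (46.0% of all such genes). Its median over the 35 tested genes was -0.91, at -0.87 for TGF-beta and activin and -0.92 for BMP, beside 0.034 over all genes. The 10-day samples lay on different slides, so the slide enters this difference too. limma called 0 probes, with 1128 (4.14%) at an unadjusted p under 0.05. Among the brightest probes Bmp7 alone passed that (unadjusted p = 0.0234, where 2.30% of all genes passed in this direction), but 3 of its 6 arrays were below background, so the size of its difference is not given. The downstream Tgfb2 probe, below background on both 3-day controls, had an unadjusted p of 0.00314 in the same direction. Inhbb differed by -2.72 ± 1.11, Tgfbi by -2.24 ± 0.93 and Smad7 by -1.83 ± 0.86. In each of these the 3-day GHCre/iDTR mean was the highest of the group means, except for Inhbb, whose 10-day control was higher.

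Read by genotype, both sides contributed values to this. From 3 to 10 days the control level was higher for 26 of the 35 tested genes (55.1% of all genes) with a median of 0.54, and the GHCre/iDTR level was lower for 23 of 35 (42.7% of all genes) with a median of -0.46. Within GHCre/iDTR samples, Bmp7 at 10 days was at least 4.85-fold lower than at 3 days, and below background at 10 days, and Tgfbi differed by -2.20 ± 0.66. These were the 2 genes with an unadjusted p under 0.05 in that direction (1.69% of all genes). The downstream Tgfb2 probe was at least 1.30-fold higher at 10 than at 3 days in controls, both 3-day arrays being below background, and differed by -2.60 ± 0.59 in GHCre/iDTR samples. The 3-day samples are shared by these comparisons. The 10-day control lay on a slide of its own, so in controls time and slide cannot be told apart. limma called 0 probes in each, with 1182 (4.34%) at an unadjusted p under 0.05 in controls and 1104 (4.05%) in GHCre/iDTR samples.

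Other genes of the pathways, taken from lists of related genes, were set beside these at 3 days, and none passed the adjusted threshold. The lists were chosen with earlier results of these data known, so their counts are descriptions and not independent of the values above. Of 24 TGF-beta target genes, 20 were tested and 19 had a higher mean in GHCre/iDTR samples (48.0% of all tested genes did), with a median of 0.77 at 3 days and -0.22 at 10 days. In 11 of the 20 the 3-day groups did not overlap, in the higher direction in each case (16.7% of all tested genes). Within both slides 12 of the 20 were higher and 1 was lower. Acta2, Fn1 and Col1a2 turned in direction in at least 1 of the fits that left out a 3-day array. Col1a1, Col1a2 and Col3a1 are also among the fibroblast and mural markers above, so the 2 lists share genes. Tgfb1i1, a focal adhesion cofactor, read -0.88 and -0.78 in controls and 1.52 and 0.35 in GHCre/iDTR samples, a difference of 1.77 ± 0.59. Klf10, an early TGF-beta response factor, read 1.19 and 0.64 against 2.21 and 2.13, a difference of 1.26 ± 0.46. Both were thus without overlap between genotypes. Snai2, a repressor linked to loss of epithelial character, differed by 4.36 ± 1.66 at 3 days and 3.17 at 10, with 3-day levels of -5.63, below background, and -2.07 in controls against 1.94 and -0.92. The 3-day value was 2.58 without control replicate 1, 2.93 without GHCre/iDTR replicate 1 and 6.14 without control replicate 2.

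Of 14 BMP target genes, 12 were tested and 9 had a higher mean in GHCre/iDTR samples after 3 days (48.0% of all tested genes did). Their median was 0.48 (-0.06 at 10 days). Atoh8 read -3.28 and -2.39 in controls and -1.53 and -0.64 in GHCre/iDTR samples, a difference of 1.75 ± 0.61, Dlx5, above background on 2 arrays only, differed by 2.14 ± 0.78, Hey1 by 0.95 ± 0.56 and Tbx3 by -1.25 ± 0.78. Intracellular modulators split, 10 of 18 higher (48.0% of all tested genes) with a median of 0.26. Of the 18, 3 had unadjusted p under 0.05 in the higher direction (3.68% of all genes) and 1 in the lower (2.42%). Tgif1, a SMAD corepressor, read -1.66 and -1.95 in controls and 0.12 on both GHCre/iDTR arrays, a difference of 1.93 ± 0.43. Ski, also a SMAD corepressor, differed by 4.43 ± 1.21 and Pmepa1, which dampens TGF-beta signalling and is listed among the TGF-beta targets too, by 3.43 ± 1.18. Both were below background in control replicate 1 alone, at -5.53 for Ski and -4.71 for Pmepa1, and the differences were 2.92 and 2.09 without it. Zfyve9, which presents SMAD2 and SMAD3 to the receptor, differed by -2.23 ± 0.75.

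A list of antagonists, latency proteins and genes that act on them had 13 of 16 tested genes higher (48.0% of all tested genes) and a median of 0.65. It included Itgb8 (at least 1.32-fold, with both 3-day controls below background), whose integrin releases active TGF-beta. Also in it were Bmp1 (1.05 ± 0.53), Nbl1 (0.91 ± 0.53) and Chrdl1 (1.41 ± 0.82). Of the tested ligands outside the 41 genes, 7 of 16 were higher, near the 48.0% of all tested genes, with a median of -0.24. Lefty2, an inhibitor of nodal, read 0.93 and 1.29 in the 3-day controls and -0.99 and -0.24 in the GHCre/iDTR samples, a difference of -1.72 ± 0.51 without overlap. Gdf5, Gdf15 and Gdf7 differed by -1.07 ± 0.58, 0.70 ± 0.45 and -0.61 ± 0.44. Of 6 tested further receptors and co-receptors 3 were higher (48.0% of all tested genes), with a median of -0.21. Acvr1c, a type I receptor for nodal and activin, read -0.52 and -1.56 in controls and -4.82, below background, and -3.31 in GHCre/iDTR samples, a difference of -3.02 ± 0.77 in the same direction as the brightest Acvr1b probe. Amhr2, Tdgf1 and Rgma differed by -0.60 ± 0.60, -0.42 ± 0.52 and 0.24 ± 0.60.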

How the data were processed

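Per the labels' protocols, sorted cells gave total RNA that was amplified and labelled with Cy3, and each of the 6 samples was hybridised to its own array. The authors deposited Agilent Feature Extraction output (10.7.3.1, build mm9, per the submitters' processing notes and file headers) holding a background-corrected processed intensity for each spot, and a table of log2 values that the authors deposited served only as a check (correlation with the scanner values at least 0.9999).

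Replicate spots were combined as means of log2 signal, outlier spots left out, and each array was divided by its 75th percentile. limma 3.58.1 in R 4.3.3 fitted 4 group means to the 6 arrays for every probe well above background on at least 2 arrays, with Benjamini-Hochberg adjustment over all 27254 probes. The spread rests on 2 residual degrees of freedom, from the 3-day replicates, with 2.03 prior degrees of freedom. The procedure was also run on simulated data in which every probe had the same spread. Spreads differ between probes here, so that run does not show how the fit performs on these arrays. The number of arrays limits the precision. "At least" folds compare the brighter group with the lowest signal above background on the dimmer arrays, or the probe's own signal where that was higher. They refer to the processed signal. With normexp background correction the differences of Bmp7 and Tgfb2 were smaller than these bounds.

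The probe with the highest mean stands for its gene. Values on all arrays are given for genes with a 3-day difference of at least 1, or a 10-day difference of at least 1.5, above background as stated, and for Id1, Id2, Id3, Smad7, Tgfb1, Tgfbr2, Bmp4 and Bmpr1a in every case. Tgfb3, Smad3 and Fstl1 were added after their values were seen. Another probe is given where probes disagree in sign by more than 0.5 on both sides. Further probes of Bmp4, Smad3, Smad1, Ltbp1 and Bmpr1b, and the 10-day values of further receptor probes, were added after their values were seen. Up to 4 genes of lowest p are named from each further list. The genes, branches and lists were chosen with earlier results of these data known. Genome annotation of build mm9 was not used here, so exon and UTR positions are not given.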

Additional observations from a re-analysis of the deposited data

How the results depend on the processing

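Across 15 settings besides the branch assignment, limma called 0 probes in each of the 5 comparisons, wherever the fit could be made. The settings changed the background correction, scaling, source of values, filter, probe rule, variance prior and blocks, or left out 1 of the 3-day arrays. Over them the lowest 3-day adjusted p lay between 0.416 and 1.00, and between 1031 and 2916 probes had an unadjusted p under 0.05. For 23 differences of named genes, the settings gave 326 values. Of these values 167 were unlike the reported one, and 164 of the 167 kept its direction. The exceptions were Bmp4 after 3 days, at -0.013 when all its probes were averaged, and Id1, which ranged from -0.64 to 1.42 over the fits that left out 1 array. Among all 35 tested genes, 12 turned in direction in at least 1 of the fits that left out a 3-day array. The cause was not tested. The 3-day median of the BMP branch ranged from 0.18 to 0.80 when single arrays were left out, and that of the TGF-beta and activin branch from 0.36 to 0.84. After 10 days the medians ranged from -0.36 to -0.17 for BMP and from -0.18 to -0.01 for TGF-beta and activin. normexp background correction gave smaller differences for dim probes: 0.74 for Bmp7, 0.53 for Inha, 0.78 for Bmpr1b, 0.44 for Tgfb1 and 2.10 for the downstream Tgfb2 probe after 3 days, and 1.68 for Tgfb1, -0.84 for upstream Tgfb2 and -0.33 for Bmp7 after 10 days. With the replicate number as a block, 0 probes were called, 1884 had an unadjusted p under 0.05 after 3 days, and the 3-day medians were 0.60 and 0.43 (TGF-beta and activin, and BMP). The deviations of same-numbered 3-day samples correlated at 0.0900, a single independent value with 2 arrays a group, so the number was not taken as a pairing. At 3 days the number and the slide coincide. A slide block could not be fitted for the 10-day comparison or the difference between times, since the 10-day control lay alone on its slide. Genes near background have no reliable fold, and with 1 array a group the 10-day values have no replicate.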
